A study of Mus musculus with 16 samples.

Results

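Mest, Sfrp5, Bmp3, Npr3, Cav1 and Cav2 form a set of 6 genes linked with the expansion of white fat and the surface of fat cells. They are 6 of the 30325 genes in the gonadal table and 6 of the 30946 in the subcutaneous table, and each was matched by its Ensembl identifier. The set was chosen by earlier results of the same samples, in which the differences between LCN2 and GFP and the values per sample were known, so both these differences and the co-variation of the members are given as descriptions.

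The samples came from female mice with the null allele of the strain B6.129P2-Lcn2tm1Aade/AkiJ on C57BL/6J, which all lack the mouse's own lipocalin-2, a secreted protein that binds iron carriers of bacteria. At 8 weeks of age they received, by vein, an AAV8 vector with either LCN2 or green fluorescent protein (GFP) behind the adiponectin promoter, which is active in fat cells. The vector also carries a target of microRNA122, so that its transcript is broken down in liver. All mice then ate an HF/HS diet (D12266B, Research Diets), and fat of the gonadal and the subcutaneous depot was taken at 16 weeks of age. Each depot had 4 LCN2 and 4 GFP samples, 16 in all, and the comparison of LCN2 with GFP asked what the protein made by fat cells changes in each depot. The control mice carry the null allele too, so no sample shows these genes in a mouse with its own Lcn2.

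Mest (mesoderm specific transcript) is an imprinted gene expressed from the paternal allele, and its level in mouse fat is known to vary widely between animals of 1 strain and to go with fat cell enlargement. Sfrp5 is a secreted antagonist of Wnt ligands made by fat cells, and Bmp3 is a member of the bone morphogenetic protein family that dampens signalling by other members; both are often described beside Mest in expanding fat. Npr3 is the natriuretic peptide clearance receptor, which removes natriuretic peptides from the fluid around the cell and so limits their lipolytic signal. Cav1 and Cav2 are the coat proteins of caveolae, flask-shaped pits that cover much of the surface of fat cells and of blood vessel endothelium and that flatten as a fat cell swells.

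Gonadal libraries held 35173260 to 42890102 reads; for subcutaneous libraries the depth is unknown. Lcn2 itself was read first, since it checks the labels. Its normalized counts in gonadal fat were 103, 62.1, 70.0 and 89.5 in GFP samples 1 to 4 and 186, 189, 522 and 481 in LCN2 samples 1 to 4. In subcutaneous fat the rlog values were 7.76, 8.32, 8.23 and 8.37 with GFP and 8.74, 8.49, 9.45 and 9.82 with LCN2. The groups did not overlap in either depot (two-sided exact permutation p = 0.0286, the smallest that 4 samples against 4 allow), but the subcutaneous gap was narrow, from 8.37 to 8.49. In limma the differences of Lcn2, LCN2 minus GFP, were 1.93 ± 0.37 in gonadal and 0.95 ± 0.29 in subcutaneous fat (SE). Neither passed an adjusted p of 0.05 (0.108 and 0.308 in limma). Fat cell markers were abundant in every sample: the summed normalized count of 8 markers (Adipoq, Plin1, Cidec, Lipe, Fabp4, Pparg, Lep and Retn) was 621840 to 907610 with GFP and 680030 to 802080 with LCN2 in gonadal fat. Some libraries stood apart in RNA of other tissues. Subcutaneous GFP samples 1 and 2 had a mean rlog over 6 lymph node markers of 10.2 and 9.33, against 5.76 and 5.78 in the other GFP samples and up to 8.04 with LCN2. Skeletal muscle markers in gonadal fat summed to 1150 to 2984 with GFP and 2125 to 46586 with LCN2. Hepatocyte markers summed to 1834 to 14022 with GFP and 1892 to 39240 with LCN2 there. In gonadal fat the 7 mesothelial markers summed to 6479 to 13460 with GFP and 2834 to 6546 with LCN2. All 7 were lower in the mean with LCN2, with a median log2 difference of -1.37. The groups were apart for 5 of 7, against 9.11% of all genes. In limma 0 of 7 passed, and 6 had an unadjusted p under 0.05, against 14.8% of all genes. On the gonadal reads edgeR called 0 and DESeq2 6, against 3.84% of the genes to which DESeq2 gave an adjusted p. Their score had r of -0.29 with Mest and -0.56 with Cav1, and their part in the differences below was not tested. In bulk tissue, fewer cells of a type and less RNA per cell cannot be told apart.

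All coordinates are on GRCm38. Mest (ENSMUSG00000051855) lies on chromosome 6 from 30723547 to 30748465 on the plus strand, and 912 of its exonic bases (23.1%) overlap exons of Copg2, which runs the other way. Cav2 (ENSMUSG00000000058, 17281185 to 17289115) and Cav1 (ENSMUSG00000007655, 17306335 to 17341452) are neighbours on the same chromosome and strand, 17219 bases apart. Sfrp5 (ENSMUSG00000018822) is on chromosome 19 from 42197971 to 42202252 on the minus strand, and Bmp3 (ENSMUSG00000029335) is on chromosome 5 from 98854415 to 98884396 on the plus strand. Npr3 (ENSMUSG00000022206) is on chromosome 15 from 11839896 to 11907287 on the minus strand, where 321 exonic bases (3.42%) overlap Gm5144 on the other strand. The strand setting used in counting is not given in the sources used here, so reads of Mest and Copg2 over the shared bases cannot be told apart.

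The promoters of Mest and Sfrp5, the most variable members, and of the neighbours Cav1 and Cav2 are shown because the members of each pair varied together across samples. Each is the 250 bases before a transcription start in RefSeq (GRCm38.p6), 5′ to 3′ on the gene's strand. RefSeq lists 3 starts for Mest and 2 for Cav1, of which that of the transcript marked as principal by GENCODE was taken. Capitals mark matches, on either strand, to a TATA box (TATAAA), the box CCAAT, a GC box (GGGCGG) or a C/EBP core (TTGCNNAA); the nuclear receptor half-site AGGTCA and the E-box CACGTG were searched too and had no match. The windows are chr6:30737800-30738049 (plus strand) for Mest, chr19:42202253-42202502 (minus strand) for Sfrp5, chr6:17306085-17306334 (plus strand) for Cav1 and chr6:17280935-17281184 (plus strand) for Cav2.
Mest: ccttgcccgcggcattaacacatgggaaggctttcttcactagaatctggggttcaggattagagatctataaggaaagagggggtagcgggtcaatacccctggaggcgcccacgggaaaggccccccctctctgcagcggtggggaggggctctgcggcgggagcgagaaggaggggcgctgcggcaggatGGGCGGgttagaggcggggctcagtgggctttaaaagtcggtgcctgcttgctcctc
Sfrp5: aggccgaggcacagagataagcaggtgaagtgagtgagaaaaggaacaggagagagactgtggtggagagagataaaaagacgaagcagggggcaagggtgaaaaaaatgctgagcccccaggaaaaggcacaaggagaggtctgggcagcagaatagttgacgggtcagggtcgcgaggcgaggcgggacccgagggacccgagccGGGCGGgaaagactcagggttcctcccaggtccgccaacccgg
Cav1: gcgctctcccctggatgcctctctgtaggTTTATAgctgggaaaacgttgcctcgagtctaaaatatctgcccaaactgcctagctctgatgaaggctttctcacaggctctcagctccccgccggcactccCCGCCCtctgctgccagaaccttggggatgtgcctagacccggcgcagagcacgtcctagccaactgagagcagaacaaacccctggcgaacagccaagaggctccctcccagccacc
Cav2: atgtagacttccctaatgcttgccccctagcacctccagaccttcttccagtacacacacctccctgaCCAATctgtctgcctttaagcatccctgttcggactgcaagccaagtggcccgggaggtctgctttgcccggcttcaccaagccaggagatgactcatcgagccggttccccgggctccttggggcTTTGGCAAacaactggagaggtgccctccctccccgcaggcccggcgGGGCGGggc

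Each of the 4 windows held 1 GC box, a motif present in 32.7% of the 32851 mouse promoters of the same length. It began 57 bases before the start in Mest, 43 in Sfrp5, 118 in Cav1 and 9 in Cav2. Beyond it, Cav2 held a C/EBP core (9.56% of promoters) and a CCAAT box (33.9%), and Cav1 held TATAAA at 221 bases before the start (12.4%). The windows of Mest and Sfrp5 held no other motif of those searched. Their CpG counts were 14 for Mest and 13 for Sfrp5, against 10 for Cav1, 10 for Cav2 and a median of 6 over all promoters. A match is a run of letters and not a shown binding site. Of the 6 members 5 had a promoter listed, and Bmp3 had none. That of Npr3 is not shown: its window held no GC box, 1 CCAAT box and 6 CpG.

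Per kb of exonic sequence, the order of the levels in gonadal fat with GFP ran from the caveolins down to the secreted factors. Cav1 had 23004 ± 5103 normalized counts per kb (SD, n = 4). By its mean over the gonadal GFP and LCN2 samples together it had rank 41 of 17904 protein-coding genes. Among the GFP means Cav2 followed with 6111 ± 1525, then Npr3 with 4047 ± 1008. The GFP sample ranges of Cav2 (4356 to 8046) and Npr3 (2896 to 5018) overlapped. Mest had 1593 ± 2297, Sfrp5 1106 ± 1268 and Bmp3 478 ± 251 per kb. These last values differ by less than their spread, since Mest alone ran from 120 to 4998 per kb over the 4 GFP samples. With LCN2, the values per kb were 25553 ± 3080 for Cav1, 6767 ± 810 for Cav2, 5301 ± 946 for Npr3, 4277 ± 1556 for Mest, 3103 ± 2140 for Sfrp5 and 593 ± 134 for Bmp3, which is the same order. All 6 passed the filter on low values in both depots.

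Mest was the member with the largest differences between samples. Its normalized counts in gonadal fat were 3722, 474, 1229 and 19715 in GFP samples 1 to 4 and 17016, 25491, 12961 and 12028 in LCN2 samples 1 to 4. The GFP samples thus spanned a 41.6-fold range and the LCN2 samples a 2.12-fold range. GFP sample 4 lay among the LCN2 samples, so the groups overlapped, while the other 3 GFP samples lay below all of them. The means were 6285 ± 9060 with GFP and 16874 ± 6139 with LCN2 (SD, n = 4 each). On the log2 scale the difference, LCN2 minus GFP, was 2.66 ± 0.97 (SE), larger than 99.9% of the 19536 genes tested, with an adjusted p of 0.255 in limma with Benjamini-Hochberg adjustment.

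Subcutaneous fat showed the same arrangement for Mest. Its rlog values, on a log2 scale, were 11.27, 9.79, 11.28 and 13.37 with GFP and 12.87, 13.70, 13.75 and 12.48 with LCN2, in the order of the sample numbers. Again GFP sample 2 was lowest, GFP sample 4 was within the range of the LCN2 samples, and all 4 LCN2 samples exceeded the other 3 GFP samples. Whether samples of 1 number in both depots are from 1 mouse is not stated in the labels. The difference was 1.78 ± 0.68 in rlog (SE; adjusted p = 0.329 in limma), from 11.43 ± 1.47 with GFP to 13.20 ± 0.63 with LCN2 (SD, n = 4 each).

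**Figure D1:**
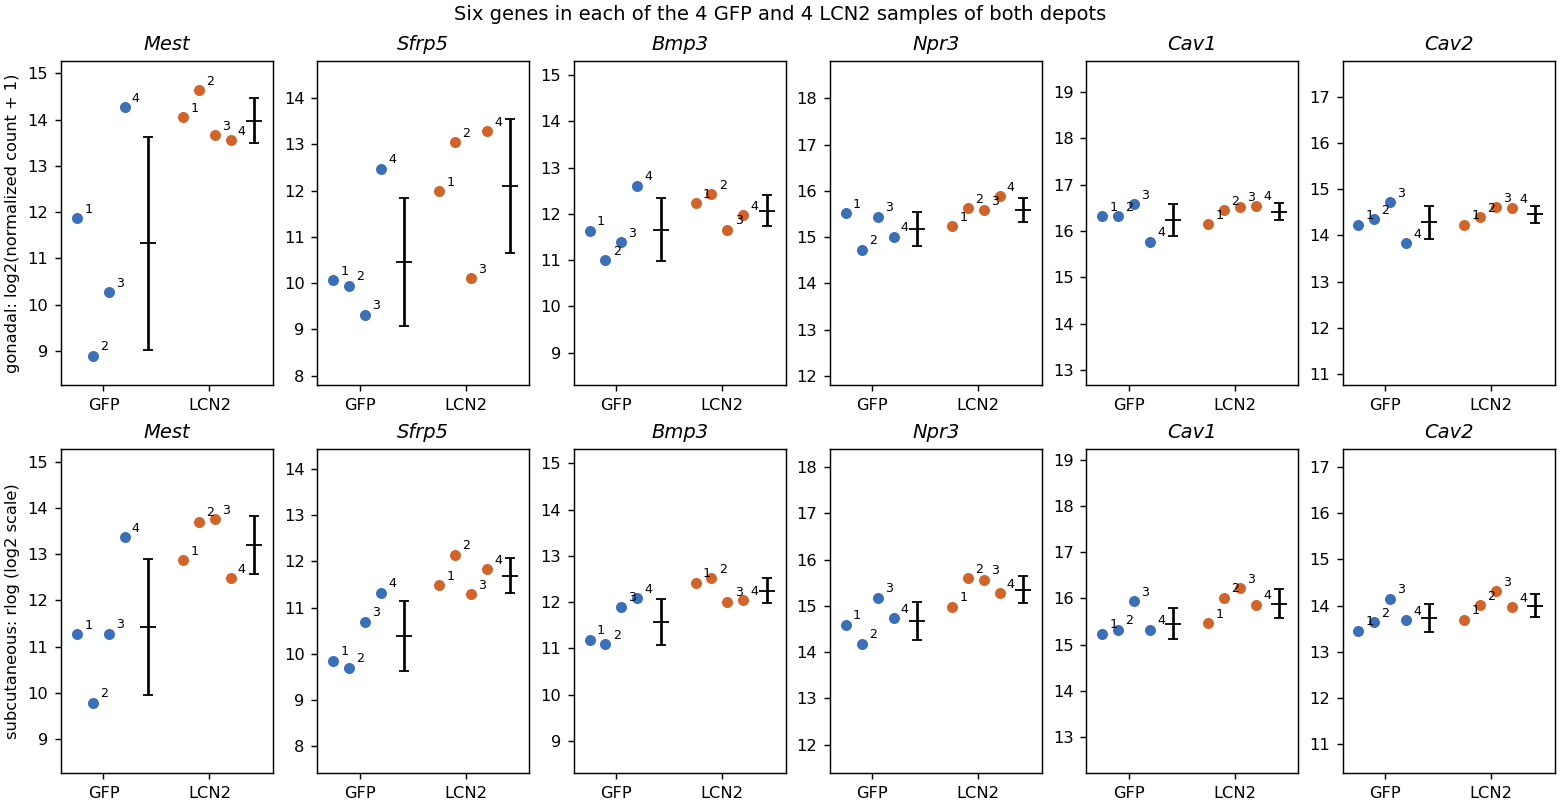
Level of each of the 6 genes in every sample, in gonadal fat as log2 of the normalized count plus 1 (upper row) and in subcutaneous fat as rlog (lower row); blue points are GFP samples, orange points LCN2 samples, numbers are sample numbers and bars are mean ± SD of 4. Every panel spans the same number of log2 units, so the height of the scatter can be compared: Mest runs from 474 to 25491 normalized counts in gonadal fat, while Cav1 and Cav2 stay within a 1.76-fold and a 1.85-fold range.

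The spread of Mest among samples of 1 group was itself among the largest of all genes. Its SD among gonadal GFP samples was 2.31 on the log2 scale, rank 27 of 13883 genes with a mean normalized count of at least 100, against a median pooled SD of 0.18. Among LCN2 samples it was 0.49, rank 826. In subcutaneous fat the SDs were 1.47 with GFP (rank 47 of 13413) and 0.63 with LCN2 (rank 124). Whether the spread of Mest differs between the vector groups was not tested.

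Sfrp5, the secreted Wnt antagonist, came next in spread. Its normalized counts in gonadal fat were 1071, 988, 640 and 5704 with GFP and 4048, 8480, 1100 and 9956 with LCN2. GFP sample 4 was again the high control, but here LCN2 sample 3 was close to the low controls, and the groups overlapped. The means were 2101 ± 2410 and 5896 ± 4065 (SD, n = 4 each), a log2 difference of 1.65 ± 0.83 (SE; adjusted p = 0.395 in limma). In subcutaneous fat the rlog values were 9.85, 9.70, 10.69 and 11.32 with GFP and 11.48, 12.14, 11.28 and 11.83 with LCN2. GFP sample 4 lay just above LCN2 sample 3, and the other GFP samples lay below all LCN2 samples. The rlog difference was 1.29 ± 0.36 (SE; adjusted p = 0.308).

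Bmp3 followed the order of Mest closely in gonadal fat (Spearman's rho 0.95) and less so in subcutaneous fat (rho 0.74), at a smaller amplitude in both. Gonadal normalized counts were 3182, 2041, 2676 and 6234 with GFP and 4810, 5510, 3229 and 3991 with LCN2. The highest sample of all was GFP sample 4, and every LCN2 sample lay above the other 3 GFP samples. The log2 difference was 0.41 ± 0.32 (SE; adjusted p = 0.603 in limma). Subcutaneous rlog values were 11.19, 11.09, 11.91 and 12.09 with GFP and 12.43, 12.53, 12.01 and 12.04 with LCN2. GFP sample 4 lay between the LCN2 samples and GFP sample 3 just below them. The rlog difference was 0.68 ± 0.24 (SE; adjusted p = 0.315).

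Npr3, the clearance receptor, had gonadal normalized counts of 47116, 27194, 44641 and 33019 with GFP and 38781, 50483, 49296 and 60513 with LCN2. GFP sample 4, the high control for Mest, was here below the GFP mean of 37993 ± 9465 (SD, n = 4), and 3 of 4 LCN2 samples exceeded every GFP sample. The log2 difference was 0.41 ± 0.22 (SE; adjusted p = 0.431 in limma). Rlog values in subcutaneous fat were 14.59, 14.18, 15.18 and 14.73 with GFP and 14.98, 15.60, 15.56 and 15.27 with LCN2. Here too 3 of 4 LCN2 samples lay above all GFP samples, and the rlog difference was 0.68 ± 0.22 (SE; adjusted p = 0.308).

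Cav1, the main coat protein of caveolae in fat cells, varied least of the members in gonadal fat. Its normalized counts there were 81539, 81539, 98192 and 55639 with GFP and 72609, 89444, 94239 and 95726 with LCN2. GFP sample 4, the high control for Mest, Sfrp5 and Bmp3, was the lowest of all samples for Cav1, and the highest was GFP sample 3. The log2 difference was 0.17 ± 0.21 (SE; adjusted p = 0.767 in limma). In subcutaneous fat Cav1 had rlog values of 15.24, 15.32, 15.94 and 15.32 with GFP and 15.46, 16.01, 16.22 and 15.87 with LCN2, with GFP sample 3 well above the other controls. The difference was 0.43 ± 0.21 (SE; adjusted p = 0.391).

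Cav2, the partner that assembles with Cav1, had normalized counts of 19219, 20938, 26832 and 14526 with GFP and 19276, 21451, 25005 and 24539 with LCN2 in gonadal fat. The lowest and the highest sample were the same as for Cav1. The ratio of Cav1 to Cav2 normalized counts stayed between 3.66 and 4.24 in the 8 samples. In subcutaneous fat its rlog values were 13.46, 13.65, 14.15 and 13.68 with GFP and 13.70, 14.01, 14.31 and 13.96 with LCN2, and the rlog of Cav1 minus that of Cav2 was 1.64 to 2.00. The differences between the vector groups were 0.17 ± 0.19 on the log2 scale in gonadal fat and 0.26 ± 0.17 in rlog in subcutaneous fat (SE; adjusted p = 0.732 and 0.495).

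Across the 6 members, 0 of 6 passed the adjusted threshold of 0.05 in limma in either depot, and in none were the groups apart. Over all genes, 0.102% were called in gonadal fat and 0.0% in subcutaneous fat, and the groups did not overlap for 9.11% and 7.08% of genes. At an unadjusted p under 0.05 there was 1 member in gonadal fat, Mest, and there were 4 in subcutaneous fat, Mest, Sfrp5, Bmp3 and Npr3. On the gonadal reads edgeR called 0 of 6, and DESeq2 called 0 of 5, giving no adjusted p for Mest. The mean was higher with LCN2 for 6 of 6 members in each depot, against 52.0% and 49.8% of all genes. The median difference of the members was 0.41 in gonadal fat, where that of all genes was 0.01, and 0.68 in subcutaneous fat, where that of all genes was -0.00078. Since the set was proposed with these values in view, its counts support no statement about the vector.

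The values depended on single GFP samples. Without GFP sample 4 the gonadal difference of Mest was 3.64 ± 0.61 (adjusted p = 0.0538 in limma) and without GFP sample 2 it was 1.85 ± 0.81. Without GFP sample 4 the gonadal differences of Cav1 and Cav2 were 0.01 ± 0.17 and 0.02 ± 0.15, and that of Bmp3 was 0.73 ± 0.21. Without GFP sample 2 they were 0.19 ± 0.30 for Bmp3 and 0.26 ± 0.21 for Npr3, and without GFP sample 3 they were 0.29 ± 0.22 for Cav1 and 0.32 ± 0.17 for Cav2. The subcutaneous difference of Cav2 was 0.40 ± 0.14 without GFP sample 3, 0.17 ± 0.17 without GFP sample 1 and 0.16 ± 0.17 without LCN2 sample 3. In subcutaneous fat, leaving out both libraries with lymph node transcripts, GFP samples 1 and 2, brought Mest to 0.88 ± 0.61 (adjusted p = 0.905), Sfrp5 to 0.68 ± 0.27 and Bmp3 to 0.25 ± 0.17. These are also 2 of the samples with the lowest Mest, so lymph node RNA and low Mest occur together in them. GFP sample 3, with a low lymph node level (mean rlog 5.78), had Mest at 11.28, near the 11.27 of GFP sample 1. LCN2 sample 4, the highest with LCN2 for these markers (8.04), had the lowest Mest of its group (12.48). With the lymph node score as a covariate the difference of Mest was 1.21 ± 0.58 (adjusted p = 0.602 in limma). The part of lymph node RNA in the difference was not tested. In gonadal fat, Mest was 1.99 ± 0.91 without LCN2 sample 4, the library with most muscle transcripts, and GFP sample 2, the GFP library with most and 2.47 ± 1.46 without those with most hepatocyte transcripts (GFP sample 1 and LCN2 samples 1 and 2). Without LCN2 sample 4 and GFP sample 2 the difference of Npr3 was 0.16 ± 0.22, and without the hepatocyte libraries it was 0.67 ± 0.30.

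**Figure D2:**
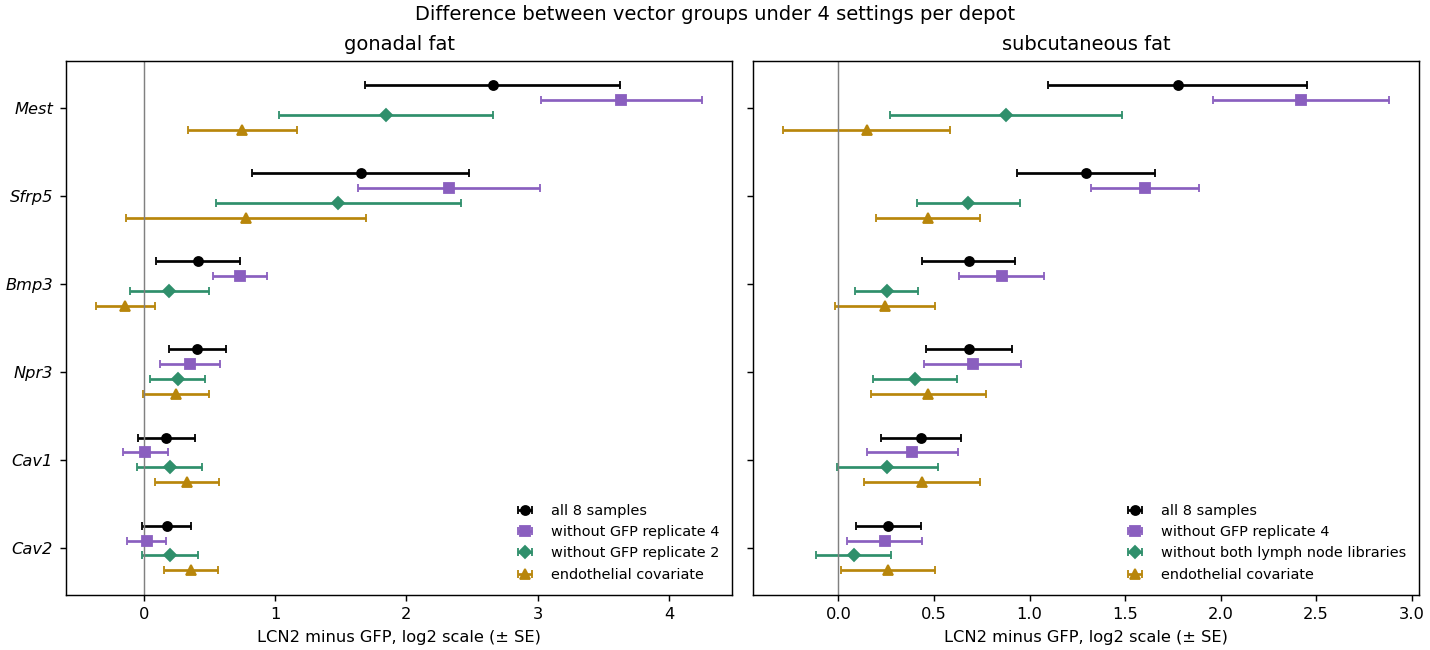
Difference between the vector groups (LCN2 minus GFP, log2 scale; horizontal bars are ± SE) for the 6 genes in gonadal fat (left) and subcutaneous fat (right), with all 8 samples, with libraries left out and with the endothelial marker score as a covariate. The point for Mest in gonadal fat moves from 2.66 with all samples to 3.64 without GFP sample 4, 1.85 without GFP sample 2 and 0.75 with the covariate.

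In gonadal fat the members fell into 2 groups by how they varied over the 8 samples. In subcutaneous fat r was positive for every pair, and the split was less clear. Mest, Sfrp5 and Bmp3 rose and fell together: in gonadal fat Pearson's r was 0.91 for Mest with Bmp3 (Spearman's rho 0.95), 0.76 for Mest with Sfrp5 (rho 0.74) and 0.82 for Sfrp5 with Bmp3 (rho 0.81). In subcutaneous fat the same pairs had r of 0.84, 0.86 and 0.94 (rho 0.74, 0.67 and 0.93). With each group's mean subtracted, r was 0.94, 0.63 and 0.78 in gonadal fat and 0.70, 0.72 and 0.88 in subcutaneous fat. This removes the shift in mean between the vector groups but not their unequal spread. The SD of Mest was 2.31 with GFP and 0.49 with LCN2 in gonadal fat, and 1.47 and 0.63 in subcutaneous fat. The GFP samples therefore weigh most in the values with Mest. Without the 2 samples farthest from the median of Mest, which were GFP samples 2 and 3 in gonadal fat and GFP samples 1 and 2 in subcutaneous fat, r for Mest with Bmp3 was 0.78 and 0.50. All points of a depot share 1 table and its scaling, and with 8 points these coefficients are descriptions.

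Cav1 and Cav2 formed the other group, with r of 0.96 in gonadal and 0.97 in subcutaneous fat (rho 0.90 and 0.95). Npr3 went with them more than with Mest: its r with Cav1 was 0.62 in gonadal fat and 0.90 in subcutaneous fat, and 0.95 and 0.93 without the same 2 samples. In subcutaneous fat Npr3 also had r of 0.76 with Mest, 0.80 with Sfrp5 and 0.76 with Bmp3, beside 0.82 with Cav2. The relation between the groups differed by depot. In gonadal fat Mest and Cav1 had r of -0.27, and -0.72 with group means subtracted. In subcutaneous fat r was 0.49, and 0.14 with group means subtracted. The difference between the depots in r was not tested.

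**Figure D3:**
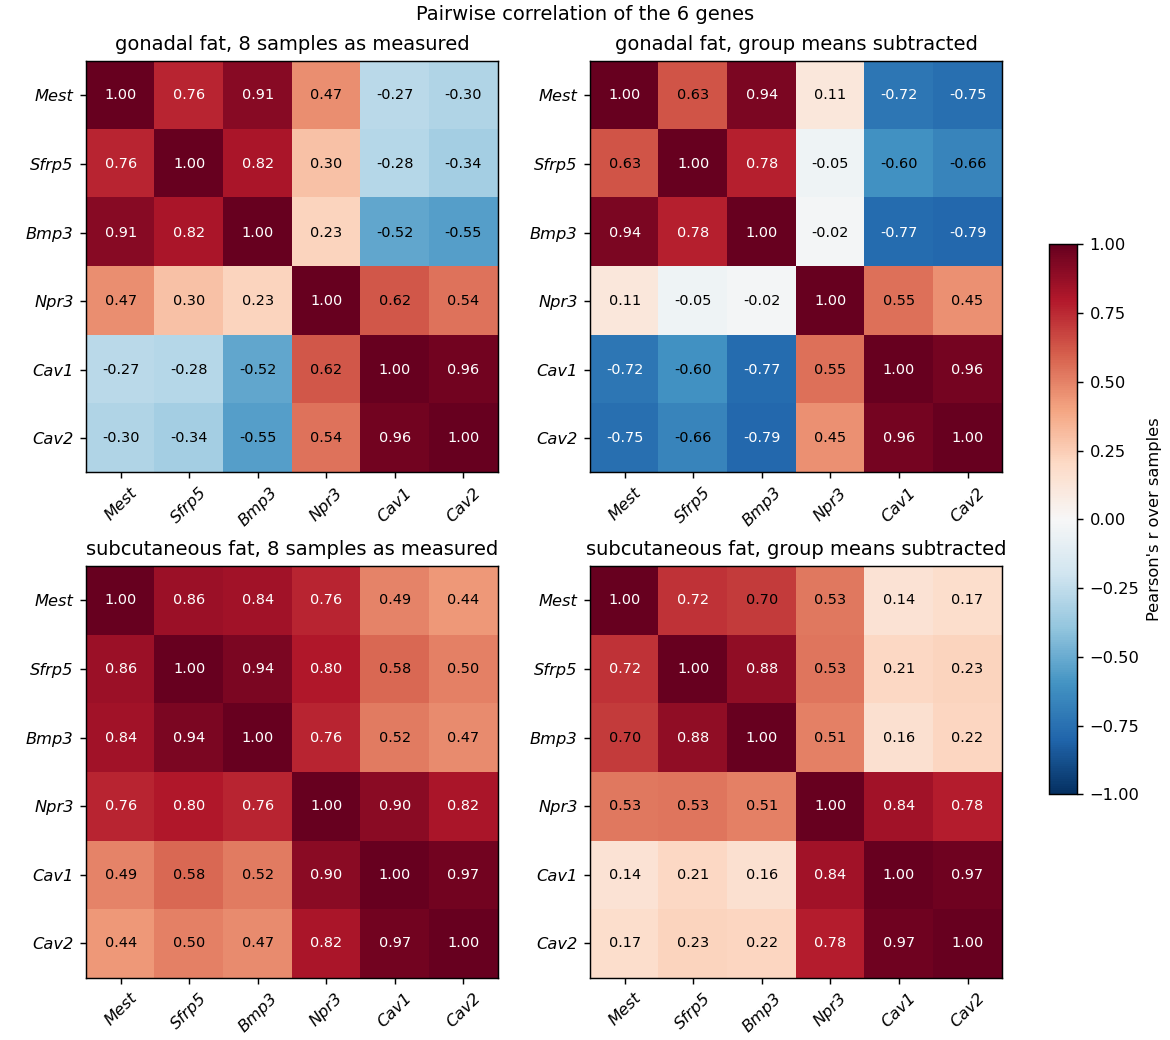
Pearson's r over 8 samples for each pair of the 6 genes, in gonadal fat (upper row, log2 of the normalized count plus 1) and subcutaneous fat (lower row, rlog), as measured (left) and with each vector group's mean subtracted (right); red is positive and blue negative. Mest, Sfrp5 and Bmp3 form 1 red block and Cav1 and Cav2 another (r = 0.96 and 0.97 as measured). The cells between the blocks are blue in gonadal fat, where Mest with Cav1 is -0.27 as measured. In subcutaneous fat they are positive, with 0.49 for Mest with Cav1 as measured.

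Among 13055 well-measured genes, those most like Mest were ranked by the lower of their 2 values of r, 1 from each depot. The first 10 with an established name were Magi1, Inka2, Emp1, Ptpre, Caskin2, Colgalt1, Itga5, Parvb, Gng11 and Zfp40. Magi1, a scaffold protein of cell junctions, had r of 0.99 in gonadal and 0.97 in subcutaneous fat. Emp1, an epithelial membrane protein, had 0.98 and 0.96, and its normalized count was 9913 ± 8284 with GFP and 21702 ± 3417 with LCN2 (SD, n = 4 each) in groups that overlapped (log2 difference 1.49 ± 0.50 SE, adjusted p = 0.228 in limma). Itga5 (the fibronectin receptor's alpha chain) and Parvb (parvin beta, which binds integrin-linked kinase) had r of 0.95 to 0.96 in both depots. Ptpre, a receptor-type tyrosine phosphatase, was the 1 of these 10 whose groups did not overlap in either depot, with differences of 0.63 ± 0.19 and 0.38 ± 0.12 (adjusted p = 0.196 and 0.308). Over all these genes, 2.57% had r above 0.8 in both depots. Bmp3 came at rank 229, Sfrp5 at 444, Npr3 at 1560, Cav1 at 5551 and Cav2 at 5758.

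Markers of blood vessel endothelium varied with Mest. The 8 markers (Pecam1, Cdh5, Tie1, Tek, Kdr, Egfl7, Esam and Emcn) summed to normalized counts of 35217, 19328, 27905 and 39370 in gonadal GFP samples 1 to 4 and 38064, 43133, 39384 and 38390 in LCN2 samples. GFP sample 2, lowest for Mest, was lowest here, and GFP sample 4 lay among the LCN2 samples. The mean of the 8 genes' deviations on the log2 scale had r of 0.96 with Mest in gonadal fat and 0.94 in subcutaneous fat. GFP samples 1, 2 and 3 were lowest for both, and the other 5 samples were not in the same order. Among the 8 genes 7 had r above 0.8 with Mest in gonadal fat and 6 in subcutaneous fat, against 6.94% and 4.87% of all genes. All 8 were higher in the mean with LCN2 in both depots, and 0 of 8 passed the adjusted threshold in limma. At an unadjusted p under 0.05 in limma there were 2 and 4, against 14.8% and 14.0% of all genes. On gonadal reads edgeR called 0 and DESeq2 0. With this score as a covariate the difference of Mest was 0.75 ± 0.42 in gonadal fat (adjusted p = 0.475 in limma) and 0.15 ± 0.44 in subcutaneous fat (adjusted p = 0.975). Some other stromal markers varied with Mest too. The score of 6 smooth muscle and pericyte markers had r of 0.73 and 0.80 with Mest, and 2 of 6 had r above 0.8 in each depot. Acta2 was at 0.94 in gonadal fat and Rgs5 at 0.91 in subcutaneous fat. Gonadal Rgs5, Myh11, Tagln and Cnn1 had 0.59, 0.49, 0.44 and 0.37. Of 7 progenitor and fibroblast markers, 3 had r above 0.8 in gonadal fat and 0 in subcutaneous fat. The 3 were Col1a1, Dpt and Cd34, with 0.96, 0.84 and 0.83. Pdgfra and Dpp4 had -0.31 and -0.17 in gonadal fat and 0.24 and -0.65 in subcutaneous fat. The list's score had 0.65 in gonadal and 0.32 in subcutaneous fat. The part of these cell types in the level of Mest was not tested.

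Cav1, in contrast, had r of -0.17 with the endothelial score in gonadal fat and 0.41 in subcutaneous fat. It went with the adipocyte score: r with the mean deviation of the 8 adipocyte genes was 0.85 in gonadal fat and 0.96 in subcutaneous fat. With the summed count, in which the most abundant markers weigh most, the gonadal r was 0.54. Taken singly, 0 of the 8 adipocyte markers had r above 0.8 with Cav1 in gonadal fat (median 0.48, from 0.04 for Fabp4 to 0.75 for Plin1) and 3 of 8 in subcutaneous fat (median 0.74). Mest had r of -0.57 and 0.47 with the same adipocyte score. Beside the lymph node markers of the subcutaneous samples, Mest had r of -0.71 and Cav1 of -0.53.

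**Figure D4:**
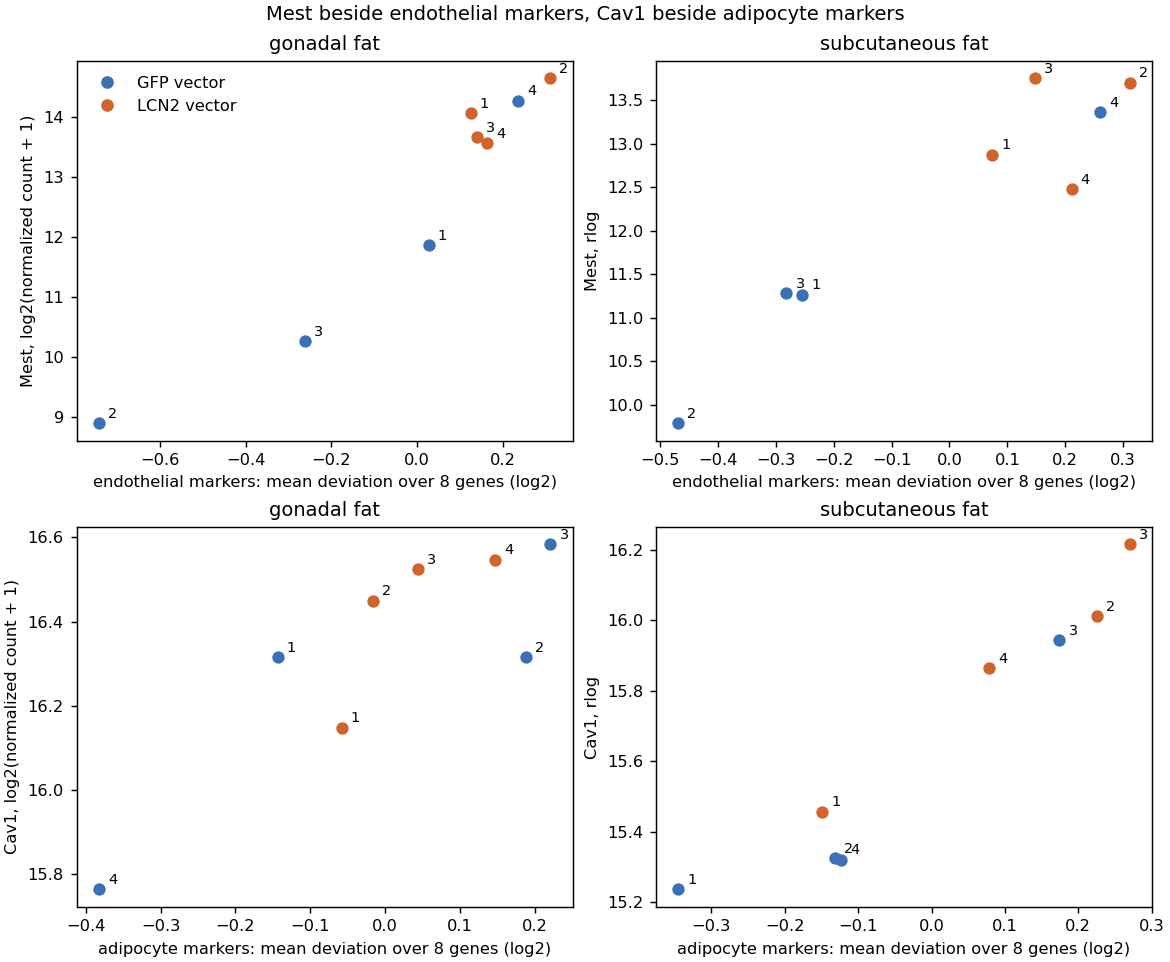
Mest against the endothelial marker score (upper row) and Cav1 against the adipocyte marker score (lower row) in the 8 samples of gonadal fat (left) and subcutaneous fat (right); a score is the mean over 8 genes of each sample's deviation from the gene's mean on the log2 scale, and numbers are sample numbers. GFP samples 1, 2 and 3 are the lowest for both measures in either depot, with GFP sample 2 lowest of all, while the other 5 samples are not in the same order for Mest and the score (r = 0.96 and 0.94 over all 8).

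The other genes of the members' pathways were read from 9 lists. In limma 0 of 99 tested in gonadal fat and 0 of 101 in subcutaneous fat passed the adjusted threshold, with 22 and 29 at an unadjusted p under 0.05 (14.8% and 14.0% of all genes were). On the gonadal reads edgeR called 0 of them, and DESeq2 called 9, against 3.84% of the 20219 genes to which it gave an adjusted p, among them Wnt5a, Axin2, Gdf10, Acvr1b, Copg2, Cpa5 and Met. The groups are therefore described by counts and values. The other parts of the caveola coat were followed in a list of cavins, EHD proteins and pacsins. With LCN2, 7 of 9 tested genes were higher in the mean in gonadal fat and 8 of 10 in subcutaneous fat, with medians of 0.25 and 0.17. Cavin3 had a gonadal difference of 0.46 ± 0.19 (SE) and a subcutaneous one of 0.78 ± 0.29 (adjusted p = 0.304 and 0.326 in limma), and its r with Cav1 was 0.87 and 0.98. Cavin1, the cavin that caveolae require, sided with Mest in gonadal fat, with r of 0.91 with Mest and -0.12 with Cav1. In subcutaneous fat it had r of 0.87 with Mest and 0.77 with Cav1. Ehd2, an ATPase at the caveola neck, had differences of 0.32 ± 0.16 and 0.48 ± 0.18. In subcutaneous fat every LCN2 sample lay above every GFP sample for Ehd4 and Pacsin2, by 0.37 ± 0.09 and 0.18 ± 0.05 (adjusted p = 0.308 for both).

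Beside Npr3, the natriuretic peptide list holds the peptides, their receptors, the enzymes that cut them and phosphodiesterases. In gonadal fat 6 of 9 tested genes were higher in the mean (median 0.03) and in subcutaneous fat 7 of 8 (median 0.20). The peptide genes Nppa, Nppb and Nppc were under the filter in both depots. Mme, the peptidase neprilysin that breaks natriuretic peptides down, had normalized counts of 3324 ± 1022 with GFP and 5153 ± 996 with LCN2 (log2 difference 0.66 ± 0.22 SE, adjusted p = 0.227 in limma) and a subcutaneous difference of 0.35 ± 0.17. Furin, a protease that processes prohormones, had 0.26 ± 0.12 and 0.19 ± 0.08. Pde5a, a phosphodiesterase that breaks down cyclic GMP, had a gonadal difference of -0.77 ± 0.43 and a subcutaneous one of 0.05 ± 0.12. The signalling receptors Npr1 and Npr2 had gonadal differences of -0.08 ± 0.16 and 0.01 ± 0.10 and subcutaneous ones of 0.29 ± 0.14 and 0.18 ± 0.10.

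Of the other secreted Wnt antagonists, 4 of 6 tested were higher in the mean in gonadal fat and 4 of 8 in subcutaneous fat. Sfrp1, the closest of them to Sfrp5 in kind, had differences of 0.44 ± 0.23 and 0.35 ± 0.12, and in subcutaneous fat its groups did not overlap. Dkk3 had a gonadal difference of -1.02 ± 0.38 (SE; adjusted p = 0.263 in limma) and a subcutaneous one of -0.07 ± 0.28. Wnt ligands and target genes were higher in 4 of 12 and 9 of 13, with medians of -0.07 and 0.05. The ligand Wnt5a, which Sfrp5 binds, had gonadal normalized counts of 1485 ± 84.0 with GFP and 1912 ± 157 with LCN2, a difference of 0.36 ± 0.08 with groups that did not overlap (adjusted p = 0.157); in subcutaneous fat it was 0.33 ± 0.10, also without overlap. Axin2, a standard readout of Wnt signalling through beta-catenin, had 0.66 ± 0.15 and 0.24 ± 0.09, and the receptor Lrp5 had 0.41 ± 0.12 and 0.33 ± 0.10. Lower in the mean with LCN2 were Ccn4, a Wnt target, in gonadal fat (-0.64 ± 0.34) and the ligand Wnt10a in subcutaneous fat (-0.24 ± 0.08, without overlap). The transcription factors Lef1 and Tcf7, also known from lymphocytes and named after their values were seen, had subcutaneous differences of -1.65 ± 0.90 and -1.73 ± 0.81, beside the lymph node RNA of GFP samples 1 and 2.

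Among BMP ligands and receptors other than Bmp3, 8 of 15 tested genes were higher in the mean in gonadal fat and 12 of 14 in subcutaneous fat. The medians were 0.05 and 0.17. Gdf10, the ligand closest in sequence to Bmp3, had the smallest adjusted p of all the listed pathway genes: its normalized count was 1112 ± 130 with GFP and 633 ± 89.2 with LCN2 (log2 difference -0.82 ± 0.12 SE, adjusted p = 0.0660), with groups that did not overlap. In subcutaneous fat its difference was -0.0017 ± 0.26 (adjusted p = 0.998). The activin receptor Acvr1b had 0.78 ± 0.19 in gonadal and 0.33 ± 0.11 in subcutaneous fat. Of BMP antagonists and targets, 8 of 13 and 10 of 14 were higher in the mean. Fstl3, which binds activins, had 0.56 ± 0.19 in gonadal and 0.55 ± 0.16 in subcutaneous fat.

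Imprinted growth genes other than Mest were higher in the mean in 14 of 24 in gonadal fat and 22 of 24 in subcutaneous fat, with medians of 0.07 and 0.23. Peg3, a zinc finger gene expressed from the paternal allele like Mest, had gonadal normalized counts of 7950, 3436, 1561 and 24655 with GFP and 27821, 22567, 7612 and 23959 with LCN2. GFP sample 4 lay among the LCN2 samples and LCN2 sample 3 among the GFP samples. Its log2 difference was 1.69 ± 0.79 (SE; adjusted p = 0.360 in limma), and its r with Mest was 0.87 in gonadal and 0.88 in subcutaneous fat. Igf2, the paternally expressed growth factor, had r with Mest of 0.80 and 0.92, and Peg10 had 0.78 and 0.87. Of the 24 genes, 2 in gonadal and 4 in subcutaneous fat had r above 0.8 with Mest, against 6.94% and 4.87% of all genes. Others in gonadal fat had negative r, among them Ppp1r9a with -0.79 and Grb10 with -0.66. In gonadal fat the differences of Igf2 and Peg10 were 0.24 ± 0.16 and 0.55 ± 0.74. In subcutaneous fat they were 0.54 ± 0.20 and 0.88 ± 0.34 (adjusted p = 0.325 and 0.329 in limma).

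The tested neighbours of Mest on chromosome 6 varied with it. With Mest, 4 of 5 tested in gonadal fat and 4 of 4 in subcutaneous fat had r above 0.8, against 6.94% and 4.87% of all genes. All 5 tested in gonadal fat and all 4 in subcutaneous fat were higher in the mean with LCN2, against 52.0% and 49.8% of all genes. The median differences were 1.16 and 0.46. Of the 9 genes listed, Mir335, Cpa1, Cpa4 and Tsga13 were not tested in either depot, nor was Cpa5 in subcutaneous fat. Copg2, the coatomer subunit gene that overlaps Mest on the other strand, had gonadal normalized counts of 2235 ± 128 with GFP and 3478 ± 783 with LCN2. Its groups did not overlap, with a log2 difference of 0.61 ± 0.14 (SE; adjusted p = 0.158 in limma). Its r with Mest was 0.58 in gonadal and 0.86 in subcutaneous fat, and reads over the bases it shares with Mest cannot be assigned without strand. Cpa5, a carboxypeptidase gene of low level here, had normalized counts of 3.86 ± 3.82 with GFP and 18.6 ± 5.09 with LCN2 (SD, n = 4 each), without overlap. In these libraries 3 reads equal a normalized count of 2.49 to 3.4, so Cpa5 was near that floor in some GFP samples. Mir335, a microRNA gene inside Mest, had a mean of 2.75 and was not tested.

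Among the genes around Cav1 and Cav2, with LCN2, 4 of 6 were higher in the mean in gonadal fat and 3 of 6 in subcutaneous fat, with medians of 0.10 and -0.03. Met, the hepatocyte growth factor receptor gene, had normalized counts of 3334 ± 993 with GFP and 2032 ± 260 with LCN2 in gonadal fat, a log2 difference of -0.67 ± 0.22 (SE; adjusted p = 0.214 in limma). Its subcutaneous difference was -0.15 ± 0.08.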

How the data were processed

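RNA of frozen tissue (eRIN above 8.2) went into KAPA stranded mRNA libraries, per the labels' protocols. The submitters' processing notes name HISAT2, DESeq2 and the build GRCm38/mm10. The sources used here do not name versions, the counter, its strand setting or the annotation. The gonadal table, as deposited, holds a signal per gene, read counts divided by 1 size factor per sample; 100% of values gave whole reads within 1e-06. The subcutaneous table, as deposited by the authors, holds rlog, a log2 scale that draws low genes towards their mean, so differences there are understated. The tables were normalized separately and tests were run within each.

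limma 3.58.1 (R 4.3.3, intensity trend) was fitted to log2(normalized count + 1) of the 19536 gonadal genes with a mean of at least 10, and to rlog of the 20302 subcutaneous genes with a mean of at least 3. The pseudocount of 1 understates differences of low genes. Differences are LCN2 minus GFP, and p-values were adjusted by Benjamini-Hochberg over all genes tested. The alternatives, among them edgeR 4.0.16 and DESeq2 1.42.0 on the recovered reads, are given in the closing section. The scripts were tested on simulated data.

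The members, the 9 pathway lists and the 10 marker lists were chosen with earlier results of these data known. Named were the members, Lcn2, up to 4 genes of smallest p per pathway list and depot, and the 10 genes most like Mest (gonadal mean of at least 100, mean rlog of at least 7, no predicted or clone name). Some genes that this rule took are left out. Markers, Mir335 and genes named for their correlation or as absent were named after values were seen. Beyond the group size, the labels do not state that samples came from separate mice, so p-values rest on a spread that may be technical. Gene annotation was GENCODE on GRCm38; symbols matched 99.2% of rows in each table.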

Additional observations from a re-analysis of the deposited data

Results flagged for a closer look

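In subcutaneous fat, Cav1 in GFP sample 3 stood apart from the other GFP samples. Its rlog was 15.94, against 15.24 to 15.32 in the others, and the gap was 0.876 of the group's whole range, above the critical value of 0.829 for 4 samples. Chance gives such a gap in about 1 of 20 groups, and 24 groups were looked at. Cav2 was also highest in that sample among the controls (14.15), as were Npr3 (15.18) and the mean rlog of the adipocyte markers (15.4).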

How the results depend on the processing

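The 6 members stayed short of the adjusted threshold in each of 20 alternatives in gonadal fat and 17 in subcutaneous fat, wherever an adjusted p was given; DESeq2 gave none for Mest (1.42 ± 1.04). Mest ranged from 0.75 to 3.64 in gonadal fat (adjusted p from 0.0538 to 0.711) and from 0.15 to 2.44 in subcutaneous fat (adjusted p from 0.0606 to 0.975, the lowest with sample quality weights). The direction turned for Bmp3 in gonadal fat with the endothelial covariate (-0.14). Among the correlations with Mest it turned for 2 when samples were left out: Mest with Npr3 in gonadal fat without the 2 farthest samples (r = -0.24), and Mest with Cav2 in subcutaneous fat without GFP samples 1 and 2 (r = -0.086), which are both the 2 farthest samples and the lymph node libraries. Pairs without Mest turned too: with the 2 farthest samples left out, Bmp3 with Npr3 had r of -0.56 in gonadal fat, and in subcutaneous fat Sfrp5 with Cav2 had -0.22, Bmp3 with Cav1 -0.20 and Bmp3 with Cav2 -0.43. With group means subtracted, Sfrp5 with Npr3 had -0.046 and Bmp3 with Npr3 -0.017 in gonadal fat. Leaving out 1 sample at a time gave Mest 1.85 to 3.64 in gonadal and 1.23 to 2.42 in subcutaneous fat.

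The number of all gonadal genes called, 20 in limma, was 7 with edgeR, 776 with DESeq2, 6 with library totals, 11 with a mean of at least 50, 2 with the endothelial covariate, 0 without LCN2 sample 4 and GFP sample 2 (the highest of each group in muscle transcripts) and 0 without the 3 libraries with most hepatocyte transcripts (1689 and 1622 at an unadjusted p under 0.05 in limma). Leaving out 1 sample at a time gave 1, without GFP sample 2, to 66, without GFP sample 4. In subcutaneous fat it was 0 in limma under every alternative run, with 2851 genes at an unadjusted p under 0.05; no count test could be run on rlog. With the replicate number as a block, 0 gonadal genes were called in limma (2636 at an unadjusted p under 0.05) and the differences of Mest were 2.66 ± 0.96 and 1.78 ± 0.78. The block moved the SE of other members both ways. It went from 0.83 to 0.40 for Sfrp5 in gonadal fat and from 0.17 to 0.06 for Cav2 in subcutaneous fat. For Bmp3 in subcutaneous fat it went from 0.24 to 0.30. Same-numbered GFP and LCN2 samples deviated together with r of -0.36 to 0.42 in gonadal and -0.36 to 0.34 in subcutaneous fat. These values do not decide whether the numbers pair samples. The cause of the changes between alternatives was not tested.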

Other observations

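Lep, the leptin gene and a product of fat cells, was the adipocyte marker that varied most like Mest; it was singled out after its values were seen. Its r with Mest was 0.80 in gonadal and 0.82 in subcutaneous fat, while in gonadal fat 6 of the other 7 adipocyte markers had r between -0.88 and -0.62 and Pparg had -0.39. Lep had a difference, LCN2 minus GFP, of 1.30 ± 0.23 on the log2 scale in gonadal fat and 1.1 ± 0.20 in rlog in subcutaneous fat (SE; adjusted p = 0.0964 and 0.308 in limma).

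Zim1, an imprinted gene beside Peg3 that is expressed from the maternal allele, was also singled out after its values were seen. Its gonadal normalized counts were 336, 98.7, 64.7 and 2091 with GFP and 1533, 928, 234 and 1312 with LCN2. GFP sample 4 was the highest of the 8, and the groups overlapped. Its r with Mest was 0.85 in gonadal and 0.68 in subcutaneous fat.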
